A study of Mus musculus with 38 samples.

Results

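The genes described here are those that came on in GFP+ pre-plasmablasts whether or not the cells could make Blimp1. A gene was taken when its mean in control pre-plasmablasts was 5 RPKM (reads per kilobase of transcript, scaled to the size of the library) or more and at least 2 times its mean in activated B cells, and its mean in Blimp1-deficient pre-plasmablasts lay between 0.8 and 2 times the control mean. Of 11441 genes whose name occurred once in the deposited tables, 832 met the first 2 conditions, called risen genes here, and 71 met all of them. The genes were thus selected on their RPKM in Blimp1-deficient pre-plasmablasts, control pre-plasmablasts and activated B cells, and these levels are described below without a test.

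Mouse B cells of the C57BL/6 strain were cultured with LPS (lipopolysaccharide, a component of bacterial walls to which B cells respond by dividing) for 4 days and sorted by flow cytometry, and their poly(A) RNA was sequenced strand-specifically. Blimp1-deficient pre-plasmablasts were Blimp1(GFP/fl) Cd23(Cre/+) cells sorted as CD138–GFP+CD22hi. Plasmablasts (CD138+GFP+), control pre-plasmablasts (CD138–GFP+) and activated B cells (CD138–GFP–) were all Blimp1(GFP/+) Cd23(Cre/+). Each of these 4 groups had 2 libraries, and every cell in them carried a GFP reporter on 1 Blimp1 allele and a Cre recombinase expressed under Cd23, a gene of mature B cells. A further 2 libraries of GSK343-treated and 2 of DMSO-treated pre-plasmablasts came from Blimp1(GFP/+) cells after 4 days of LPS (CD138–GFP+), and 2 libraries came from Blimp1(GFP/+) plasma cells sorted directly from mice as CD28+CD138+GFP+Lin-. The labels do not state whether both libraries of a group derive from different mice or cultures, and the spread that the p-values rest on may be technical. Ages, the dose of GSK343 and the time of treatment were not given in the sources used here. The gate differed with the genotype, so the missing Blimp1 and the selection of CD22hi cells cannot be told apart.

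Blimp1, encoded by Prdm1, is a zinc-finger DNA-binding protein that represses genes of the mature B cell and activates genes of antibody secretion. In activated B cells the transcription factor IRF4 rises first and drives Prdm1, and Xbp1 then directs the growth of the endoplasmic reticulum that antibody secretion needs. GFP from the Blimp1 locus marks cells that have switched the locus on, also where the protein cannot be made. Cells between activation and full secretion are called pre-plasmablasts, and CD138, encoded by Sdc1, marks the later plasmablasts.

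The libraries were checked first. Prdm1, whose floxed allele is the deleted one, had 199 and 171 RPKM in Blimp1-deficient pre-plasmablasts, 363 and 289 RPKM in plasmablasts, 429 and 327 RPKM in control pre-plasmablasts and 7.45 and 10.7 RPKM in activated B cells. A whole-gene value also counts reads from the parts of the transcript that a deletion leaves, so it does not measure intact Prdm1 mRNA. Cd22, a gene of the gate, had 345 and 309 RPKM in Blimp1-deficient pre-plasmablasts, against 28.5 and 38.3 RPKM in control pre-plasmablasts and 493 and 470 RPKM in activated B cells. Sdc1 stood at 32.7 and 30.5 RPKM in plasmablasts, against 2.19 and 2.12 RPKM in control pre-plasmablasts. All 10 of the B lineage markers listed were present, and they summed to 15300 and 15209 RPKM in Blimp1-deficient and 12169 and 11901 RPKM in control pre-plasmablasts. Most of each sum was Cd74, with means of 10895 RPKM in Blimp1-deficient and 9570 RPKM in control pre-plasmablasts, while Pax5, the factor that holds B cell identity, averaged 146 RPKM in Blimp1-deficient and 19.5 RPKM in control pre-plasmablasts. Of T cell markers 3 of 10 were in these tables and summed to 10.3 and 10.2 RPKM in Blimp1-deficient, 2.32 and 3.67 RPKM in control pre-plasmablasts and 7.72 and 8.03 RPKM in activated B cells. Of erythroid and megakaryocyte markers 3 of 10 were present and summed to 15.0 and 13.5 RPKM in Blimp1-deficient, 3.45 and 4.21 RPKM in control pre-plasmablasts and 18.6 and 13.1 RPKM in activated B cells. The part of these cell types in the results was not tested. In a mixed population, fewer cells of a type and less RNA per cell cannot be told apart.

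The 71 genes were a small share of what came on. Over all 832 risen genes the ratio of the Blimp1-deficient to the control mean had a median of 0.452, and 755 lay under 0.8, of which 495 were under 0.5. In the 71 genes the ratio ran from 0.8001 to 1.92 with a median of 1.04, since the rule set these limits. Only 6 risen genes were over 2, namely Cd9, Crip2, Hmox1, Serpine2, Smox and Tnfrsf8. Against activated B cells the 71 means in Blimp1-deficient pre-plasmablasts were 1.71 to 13.9 times as high, with a median of 3.12. For 65 of them the ratio was 2 or more, against 222 of the 832 risen genes (26.7%). Both Blimp1-deficient libraries exceeded both activated libraries for all 71, against 595 of the 832 (71.5%). The limits of the rule nearly fix both counts for the 71 genes.

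**Figure D1:**
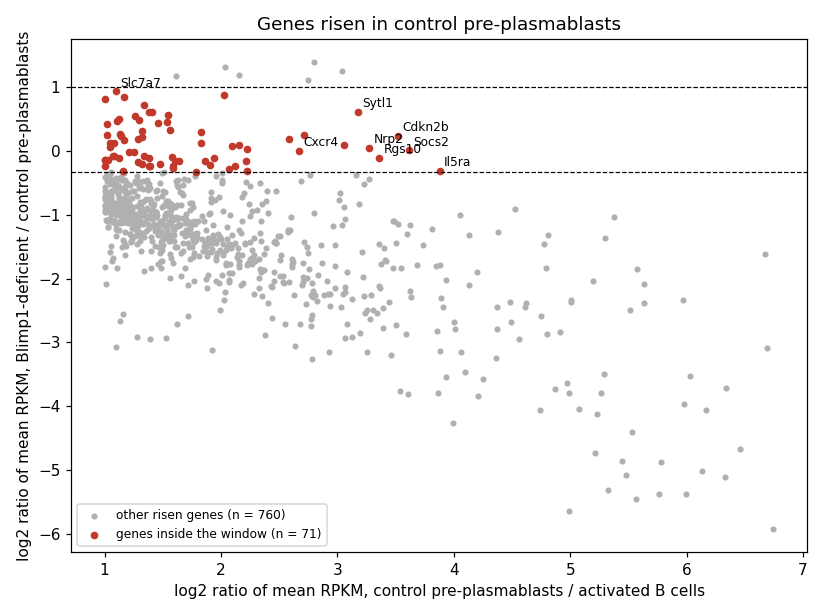
Each point is 1 risen gene, with the log2 ratio of mean RPKM in control pre-plasmablasts over activated B cells on the x axis and in Blimp1-deficient over control pre-plasmablasts on the y axis. Dashed lines mark ratios of 0.8 and 2, red points are the 71 genes between them, and most grey points lie below the lower line; 1 risen gene at 0 RPKM in activated B cells is left out.

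The genes nearest the limits show how little separates inside from outside. At the lower ratio limit, Ccnd2 (0.8001) and Mtdh (0.805) were inside, and the protease gene Ctsb (0.798) and the lysosomal transporter gene Slc17a5 (0.797) were outside. At the upper limit Slc7a7 (1.92) and Plcd3 (1.85) were inside, and Serpine2 (2.16) and Smox (2.27) were outside. Ptpn22 and St7l, each 2.00 times activated B cells, were just inside the fold limit, where Tnfrsf10b (2.00, below the limit at the next digit) and Qrsl1 (1.99) were just outside. Dnajb14 (5.14 RPKM) and Rhod (5.17 RPKM) were just inside the level limit, with Adamts7 (4.88 RPKM) and Dnm3 (4.77 RPKM) outside. The libraries also carry 2 series of library numbers in their titles, each with 1 library of every group, and the rule was applied to each series. Applied to the first series alone the rule took 81 genes, of which 52 (64.2%) also met it in the second, compared with 15 of 801 (1.9%) risen genes outside the window. Applied to the second series alone it took 74 genes, of which 52 (70.3%) met it in the first, compared with 13 of 715 (1.8%). Most risen genes lay well below the window, so the low shares outside it were nearly fixed.

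Gene starts were searched for known control elements, although these genes share only the rule and their time of onset was not measured. RefSeq (GRCm38.p6) gave a promoter for 54 of the 71 genes, and the 250 bases before each start were read on both strands. The endoplasmic reticulum stress element (CCAAT and CCACG with 9 bases between them) was in 0 of the 54, against 1.51% of 595 risen genes with a ratio under 0.8 and 0.168% of 8930 genes of the tables. The unfolded protein response element TGACGTGG was also in 0 of the 54, against 2.69% of those 595 and 0.907% of all. The AP-1 element TGANTCA was in 7 of 54 (13%), against 5.88% and 5.20%. These 7 genes were Abr, Agpat4, Bag3, Cd68, Il5ra, Mgst2 and Rsad2. The interferon-stimulated response element (a pair of GAAA runs with 2 bases between them) was in 4 (7.41%), against 3.87% and 3.14%, and the Blimp1-like core AGNGAAAG, which can overlap it, was in 5 (9.26%), against 7.23% and 8.07%. The STAT element TTCNNNGAA, added to the search after the genes had been seen, was in 2 (3.70%, Gpr55 and Ptpn22), against 5.38% and 7.27%.

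The shares of the remaining elements lay on either side of the others. CCAAT was in 17 of 54 promoters (31.5%), against 45.9% and 40.9%, the E-box CACGTG in 5 (9.26%), against 10.8% and 10.3%, and the ETS-IRF composite element (GGAA and GAAA with 2 bases between them) in 3 (5.56%), against 1.51% and 2.33%. The cyclic AMP response element TGACGTCA was in 1 (1.85%, Cdkn2b), against 2.35% and 3.24%, and the amino acid response element TGATGNAAT was in 0, against 0.504% and 0.448%. A match is a run of letters and not a shown binding site. Below are 3 promoters with an AP-1 match, chosen to show it in a receptor gene, an enzyme gene and an interferon-response gene, and beside them that of Hspa5, a chaperone gene outside the window, which holds both an AP-1 match and the stress element. Each is read 5′ to 3′ on the strand of its gene and ends at the base before the start.
Il5ra: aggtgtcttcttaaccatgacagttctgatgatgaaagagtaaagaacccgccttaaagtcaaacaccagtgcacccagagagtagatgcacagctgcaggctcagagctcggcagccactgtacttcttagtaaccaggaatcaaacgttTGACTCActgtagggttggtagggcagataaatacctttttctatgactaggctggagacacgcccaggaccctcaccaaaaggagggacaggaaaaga
Mgst2: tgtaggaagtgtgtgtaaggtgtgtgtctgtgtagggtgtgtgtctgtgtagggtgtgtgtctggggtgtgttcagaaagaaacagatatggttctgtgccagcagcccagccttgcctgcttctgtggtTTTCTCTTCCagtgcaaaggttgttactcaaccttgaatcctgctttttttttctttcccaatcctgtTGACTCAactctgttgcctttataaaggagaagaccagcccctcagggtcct
Rsad2: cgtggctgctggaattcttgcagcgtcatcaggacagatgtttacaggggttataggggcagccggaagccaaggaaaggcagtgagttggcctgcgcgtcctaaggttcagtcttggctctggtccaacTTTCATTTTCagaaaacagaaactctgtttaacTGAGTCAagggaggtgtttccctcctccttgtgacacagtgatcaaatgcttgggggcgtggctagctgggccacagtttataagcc
Hspa5: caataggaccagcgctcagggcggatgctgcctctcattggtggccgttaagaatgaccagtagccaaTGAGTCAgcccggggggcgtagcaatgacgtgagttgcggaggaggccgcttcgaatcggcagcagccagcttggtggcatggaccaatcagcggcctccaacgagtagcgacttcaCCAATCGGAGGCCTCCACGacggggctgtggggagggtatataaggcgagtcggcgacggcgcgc
In Il5ra (chr6:106749038-106749287, minus strand) the capitals mark the AP-1 match. In Mgst2 (chr3:51660929-51661178, plus strand) they mark, in order, the ETS-IRF match on the reverse strand and the AP-1 match. In Rsad2 (chr12:26456453-26456702, minus strand) they mark the interferon-stimulated response element on the reverse strand and then the AP-1 match. In Hspa5 (chr2:34771840-34772089, plus strand), which encodes the main chaperone of the endoplasmic reticulum, they mark the AP-1 match and then the stress element. An AP-1 match was therefore not particular to the 71 genes. Hspa5 averaged 362 RPKM in Blimp1-deficient pre-plasmablasts, 1523 RPKM in control pre-plasmablasts and 261 RPKM in activated B cells.

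Cytokine receptor genes and their feedback inhibitors formed the first group. Il5ra, the alpha chain of the interleukin-5 receptor, had 7.20 and 10.02 RPKM in Blimp1-deficient pre-plasmablasts, 8.86 and 15.5 in plasmablasts, 7.25 and 14.1 in control pre-plasmablasts and 0.388 and 1.06 in activated B cells. Csf2rb, the shared beta chain of the interleukin-3, interleukin-5 and GM-CSF receptors, stood at 48.5 and 48.2 RPKM in Blimp1-deficient pre-plasmablasts, 43.3 and 43.4 in plasmablasts, 37.6 and 39.3 in control pre-plasmablasts and 12.2 and 13.8 in activated B cells. Both chains of the interleukin-5 receptor were thus present in all 3 groups other than activated B cells, and none of those libraries overlapped the activated ones. Mice have a close copy of Csf2rb, Csf2rb2, with which reads may be shared, so this value is uncertain. Socs2, which inhibits cytokine signalling through JAK and STAT proteins, had 6.43 and 6.79 RPKM in Blimp1-deficient and 6.34 and 6.77 RPKM in control pre-plasmablasts, against 0.331 and 0.739 RPKM in activated B cells. Cish, of the same inhibitor family, had 10.2 and 10.3 RPKM in Blimp1-deficient pre-plasmablasts, against 12.6 and 10.9 in control pre-plasmablasts and 4.13 and 4.31 in activated B cells. Pim2, a kinase that promotes the survival of B and plasma cells, lay above the control level, with 247 and 270 RPKM in Blimp1-deficient and 194 and 169 RPKM in control pre-plasmablasts, against 85.7 and 80.8 RPKM in activated B cells.

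The 4 cell cycle genes held both activators and inhibitors of the cyclin-dependent kinases. Cdkn2b, which encodes the p15 inhibitor of the kinases CDK4 and CDK6, had 37.8 and 52.3 RPKM in Blimp1-deficient pre-plasmablasts, 28.2 and 34.6 in plasmablasts, 35.7 and 40.7 in control pre-plasmablasts and 2.55 and 4.10 in activated B cells. Cdkn1a, encoding the p21 inhibitor, had 122 and 159 RPKM in Blimp1-deficient pre-plasmablasts, 63.0 and 68.5 in plasmablasts, 82.8 and 88.0 in control pre-plasmablasts and 33.7 and 33.6 in activated B cells. Cdkn1a was thus higher in both Blimp1-deficient libraries than in any other library of the 4 groups. Ccnd2, encoding cyclin D2, which activates those kinases, had 159 and 200 RPKM in Blimp1-deficient and 231 and 217 RPKM in control pre-plasmablasts, against 60.0 and 69.9 RPKM in activated B cells. Cdk6, a partner of cyclin D2, had 12.1 and 10.8 RPKM in Blimp1-deficient and 13.7 and 12.5 RPKM in control pre-plasmablasts, against 4.82 and 5.67 RPKM in activated B cells. For both genes the Blimp1-deficient libraries lay below the control ones and above the activated ones.

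Surface receptors and adaptors were the largest group, with 15 genes. Cxcr4, the receptor for the chemokine CXCL12 that holds plasma cells in the bone marrow, had 223 and 147 RPKM in Blimp1-deficient pre-plasmablasts, 242 and 153 in plasmablasts, 215 and 153 in control pre-plasmablasts and 32.7 and 25.0 in activated B cells. The first library of each group was the higher one for Cxcr4, and within each series the GFP+ levels lay close together. Nrp2, a co-receptor for semaphorins, had 10.4 and 11.3 RPKM in Blimp1-deficient and 10.4 and 10.5 RPKM in control pre-plasmablasts, against 1.02 and 1.14 RPKM in activated B cells. Cd24a, a glycolipid-anchored surface protein, was the most abundant of the 71 genes, with 834 and 1084 RPKM in Blimp1-deficient and 1159 and 1213 RPKM in control pre-plasmablasts, against 243 and 265 RPKM in activated B cells. Gpr55, a receptor for lysophosphatidylinositol, had 45.2 and 49.4 RPKM in Blimp1-deficient pre-plasmablasts, 94.5 and 97.3 in plasmablasts, 54.3 and 57.0 in control pre-plasmablasts and 11.7 and 13.9 in activated B cells. Gpr55 thus stood highest in plasmablasts. Cd81, a tetraspanin of the B cell co-receptor, had 393 and 359 RPKM in Blimp1-deficient and 449 and 361 RPKM in control pre-plasmablasts, against 205 and 167 RPKM in activated B cells.

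Several genes of this group are best known from myeloid cells. Fcer1g, the signalling gamma chain of Fc receptors, had 7.78 and 11.96 RPKM in Blimp1-deficient pre-plasmablasts, 3.72 and 4.86 in plasmablasts, 8.38 and 12.9 in control pre-plasmablasts and 2.66 and 2.88 in activated B cells. Cd68, a lysosomal glycoprotein of macrophages, had 40.6 and 43.5 RPKM in Blimp1-deficient and 30.4 and 30.3 RPKM in control pre-plasmablasts, against 14.2 and 13.9 RPKM in activated B cells. Cd36, a scavenger receptor that also takes up fatty acids, had 139 and 177 RPKM in Blimp1-deficient and 127 and 126 RPKM in control pre-plasmablasts, against 50.2 and 51.2 RPKM in activated B cells. Of 13 myeloid markers listed, 3 were in these tables, Fcer1g among them, and none of these 3 was at 0. The other two markers summed to 28.2 and 31.1 RPKM in Blimp1-deficient pre-plasmablasts, 0.762 and 1.83 in plasmablasts, 3.88 and 4.28 in control pre-plasmablasts and 28.6 and 22.0 in activated B cells. Their sum was therefore high in both Blimp1-deficient pre-plasmablasts and activated B cells. The means of Fcer1g, Cd68 and Cd36 were lower in activated B cells than in either kind of pre-plasmablast. The rule requires this order of every gene taken, so no reading is made of it. The part of the marker sum in the levels of these 3 genes was not tested.

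Signalling enzymes numbered 11. Rgs10, which ends signalling of G proteins by speeding their GTP hydrolysis, had 68.2 and 73.95 RPKM in Blimp1-deficient pre-plasmablasts, 85.2 and 74.1 in plasmablasts, 76.2 and 76.4 in control pre-plasmablasts and 6.66 and 8.20 in activated B cells. Rap1gap, which switches off the small GTPase Rap1, had 19.9 and 13.1 RPKM in Blimp1-deficient and 15.3 and 13.7 RPKM in control pre-plasmablasts, against 2.41 and 2.43 RPKM in activated B cells. Ptpn22, a phosphatase that dampens antigen receptor signalling, had 92.5 and 110 RPKM in Blimp1-deficient and 56.2 and 57.9 RPKM in control pre-plasmablasts, against 27.5 and 29.5 RPKM in activated B cells. Ptpn22 and Plcd3 were among 8 of the 71 genes whose ratio to the control was 1.5 or more. Plcd3, a phospholipase C, had 9.52 and 10.2 RPKM in Blimp1-deficient and 5.56 and 5.12 RPKM in control pre-plasmablasts, against 1.399 and 1.22 RPKM in activated B cells.

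**Figure D2:**
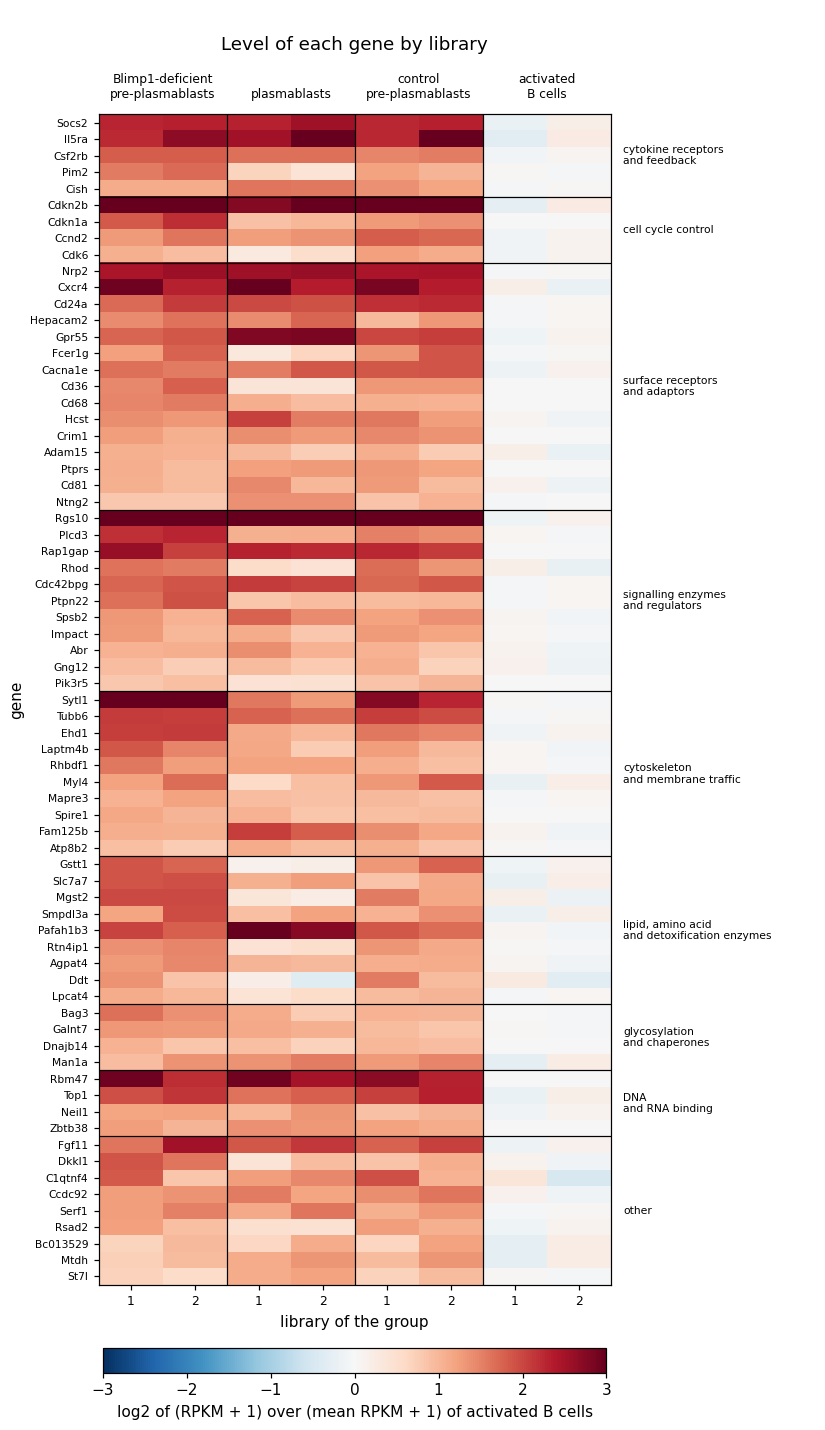
Rows are the 71 genes by function and columns the 2 libraries of each of 4 groups, coloured by log2 of (RPKM + 1) over the mean (RPKM + 1) of activated B cells. Red fills the Blimp1-deficient and the control columns alike, as the rule requires, whereas the plasmablast columns, which it did not use, are paler for genes such as Cd36 and Gstt1 and darker for Gpr55 and Pafah1b3.

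Among 10 genes of the cytoskeleton and membrane traffic, Sytl1, a synaptotagmin-like partner of the vesicle GTPase Rab27, had the highest ratio of Blimp1-deficient pre-plasmablasts to activated B cells of the 71 genes, 13.9. It had 21.9 and 19.6 RPKM in Blimp1-deficient pre-plasmablasts, 6.41 and 5.04 in plasmablasts, 15.9 and 11.1 in control pre-plasmablasts and 1.57 and 1.41 in activated B cells. Ehd1, which recycles membrane from endosomes, had 232 and 234 RPKM in Blimp1-deficient and 164 and 152 RPKM in control pre-plasmablasts, against 50.1 and 58.0 RPKM in activated B cells. Laptm4b, a lysosomal membrane protein, had 12.3 and 9.13 RPKM in Blimp1-deficient and 7.79 and 6.21 RPKM in control pre-plasmablasts, against 2.87 and 2.51 RPKM in activated B cells. In each of these 3 genes both Blimp1-deficient libraries lay above both control libraries.

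Enzymes of lipid, amino acid and detoxification chemistry numbered 9. Slc7a7, the light chain of an exporter of basic amino acids, had the highest ratio to the control, with 29.8 and 31.0 RPKM in Blimp1-deficient and 14.2 and 17.4 RPKM in control pre-plasmablasts, against 6.18 and 8.62 RPKM in activated B cells. Mgst2, a membrane-bound glutathione transferase, had 97.6 and 97.2 RPKM in Blimp1-deficient pre-plasmablasts, 31.0 and 28.1 in plasmablasts, 72.3 and 54.3 in control pre-plasmablasts and 26.9 and 20.9 in activated B cells. In plasmablasts Mgst2 lay close to the activated level. Ddt, D-dopachrome tautomerase, a relative of the cytokine MIF, had 543 and 388 RPKM in Blimp1-deficient and 628 and 414 RPKM in control pre-plasmablasts, against 258 and 170 RPKM in activated B cells.

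The secretory machinery was barely represented. Man1a, a Golgi mannosidase that trims N-linked glycans, had 256 and 342 RPKM in Blimp1-deficient and 328 and 375 RPKM in control pre-plasmablasts, against 111 and 158 RPKM in activated B cells. Galnt7, an enzyme of O-linked glycosylation, had 14.0 and 13.7 RPKM in Blimp1-deficient and 10.8 and 9.95 RPKM in control pre-plasmablasts. In activated B cells it had 5.24 and 4.98 RPKM. The other two genes of this group were the Hsp70 partners Bag3 and Dnajb14. Of 4 genes of DNA- and RNA-binding proteins, Top1, encoding DNA topoisomerase I, had 224 and 257 RPKM in Blimp1-deficient and 243 and 293 RPKM in control pre-plasmablasts, against 50.5 and 65.2 RPKM in activated B cells. Rbm47, an RNA-binding protein, had 20.2 and 12.1 RPKM in Blimp1-deficient and 17.4 and 13.01 RPKM in control pre-plasmablasts, against 1.86 and 1.796 RPKM in activated B cells. For both genes the Blimp1-deficient and the control libraries overlapped.

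The remaining 9 genes had no common role. Dkkl1, a secreted protein related to the Dickkopf family, had 15.3 and 12.4 RPKM in Blimp1-deficient and 7.02 and 8.44 RPKM in control pre-plasmablasts, against 3.74 and 3.12 RPKM in activated B cells. Fgf11 had 5.04 and 10.4 RPKM in Blimp1-deficient and 5.76 and 7.20 RPKM in control pre-plasmablasts, against 0.795 and 1.18 RPKM in activated B cells. Rsad2, encoding the antiviral protein viperin, had 9.62 and 7.52 RPKM in Blimp1-deficient and 9.86 and 8.55 RPKM in control pre-plasmablasts, against 3.16 and 3.89 RPKM in activated B cells. Over all 71 genes the 2 Blimp1-deficient libraries overlapped the control libraries in 35, lay above both in 23 and below both in 13. Over the 832 risen genes these counts were 54, 29 and 749, and over 10473 genes they were 3390, 4326 and 2757. In the fit over 10473 genes, 24.4% were higher and 16.1% lower in Blimp1-deficient than in control pre-plasmablasts at an adjusted p below 0.05. The rule used this contrast, so no reading is made of these counts.

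The next comparison asked where known programmes of the plasma cell stood. It used the contrast on which the genes were selected, so a gene that clearly fell in it could not be among the 71, and the counts of members are a description. Gene lists were compared between Blimp1-deficient and control pre-plasmablasts with limma on log2(RPKM + 1), with p-values adjusted over all 10473 genes tested (Benjamini-Hochberg). Of 38 genes of the unfolded protein response and chaperones, 37 fell, 34 were risen genes, and none of those was among the 71. Hsp90b1, a chaperone of the endoplasmic reticulum, fell to 520 RPKM in Blimp1-deficient against 2300 RPKM in control pre-plasmablasts, a log2 change of -2.14 (SE 0.21, adjusted p = 0.000457). Of 52 genes of translocation and vesicle transport, 44 fell and 1 rose, 41 were risen genes, and none was among the 71. All 12 risen genes of the 27 tested ATF4 targets of amino acid metabolism had ratios under 0.5.

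Other lists held a few of the 71 genes. Over all 832 risen genes 71 were inside the window, and the counts of single lists are too small to be read against that share. Of 37 N-glycosylation genes 25 fell (with the library series as a replicate block 32 fell and 2 rose), and of their 23 risen genes 1, Man1a, was inside the window. Of 23 plasma cell regulators and surface molecules, 19 fell and 2 rose, and of their 18 risen genes 1, Cxcr4, was inside. Irf4, which precedes Blimp1, averaged 90.5 RPKM in Blimp1-deficient and 309 RPKM in control pre-plasmablasts, against 29.8 RPKM in activated B cells, a ratio to the control of 0.293. Xbp1 averaged 137 RPKM in Blimp1-deficient and 1300 RPKM in control pre-plasmablasts, against 63.3 RPKM in activated B cells. Of 34 cell cycle genes 3 rose and 10 fell, or 6 rose with the library series as a replicate block, and 2 of the 3 risen genes, Ccnd2 and Cdk6, were inside. Of 7 inhibitors of cyclin-dependent kinases 1 rose and 3 fell, or 5 fell with the block, and 2 of the 3 risen genes, Cdkn1a and Cdkn2b, were inside. Of 27 interferon response genes 15 rose and 6 fell, and of 7 risen genes 1, Rsad2, was inside. Across all 28 lists, which held 593 tested genes, 120 rose and 248 fell. Of their 182 risen genes 9 were among the 71, against 71 of all 832 risen genes.

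**Figure D3:**
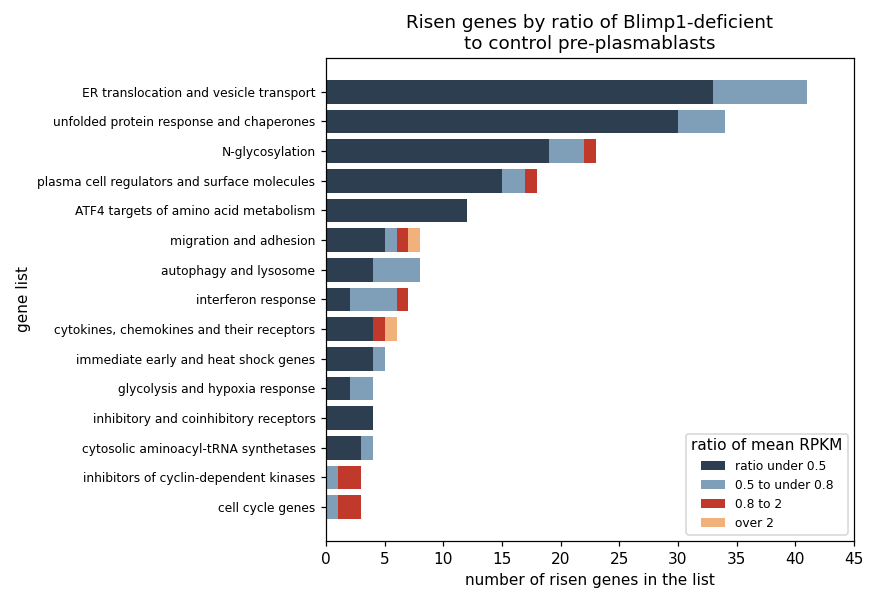
Bars count the risen genes of each list with 3 or more of them, split by the ratio of mean RPKM in Blimp1-deficient over control pre-plasmablasts. The 34 genes of the unfolded protein response and the 41 of translocation and transport hold no red segment (ratio 0.8 to 2). In each of both cell cycle lists 2 of 3 genes are red, and over all 832 risen genes 71 are inside this window. The split uses the contrast that chose the genes, so no reading is made of single lists.

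Plasmablasts tell whether these genes went further once CD138 appeared, and their libraries took no part in choosing the genes, although the control libraries did. At an adjusted p below 0.05 (limma, 8 libraries in 1 fit), 2 of the 71 genes were higher in plasmablasts than in control pre-plasmablasts and 7 were lower. Over all 10473 genes tested 0.716% were higher and 1.62% lower, and the median log2 change was -0.05 for the 71 genes and -0.04 for all. Among the 755 risen genes with a ratio under 0.8, 3.58% were higher and 2.65% lower, with a median of 0.20. Pafah1b3, a subunit of an enzyme that inactivates platelet-activating factor, rose to 175 and 137 RPKM in plasmablasts, against 75.0 and 65.6 RPKM in control pre-plasmablasts (log2 change 1.13, SE 0.16, adjusted p = 0.0192). Gpr55, given above, rose by 0.78 (SE 0.11, adjusted p = 0.0189).

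Of the 7 lower genes, 3 came from the lipid, amino acid and detoxification group. Gstt1, a glutathione transferase, fell to 3.49 and 3.60 RPKM in plasmablasts, against 8.99 and 12.9 RPKM in control pre-plasmablasts (log2 change -1.37, SE 0.18, adjusted p = 0.0165). Mgst2 fell by 1.06 (SE 0.17, adjusted p = 0.0336), and Rtn4ip1, a mitochondrial oxidoreductase, by 0.76 (SE 0.10, adjusted p = 0.0164). Cd36 fell to 66.4 and 66.6 RPKM in plasmablasts, against 127 and 126 RPKM in control pre-plasmablasts (log2 change -0.92, SE 0.12, adjusted p = 0.0167). Sytl1 (log2 change -1.09), Rhod (-1.01) and Cdk6 (-0.75) made up the rest. For all 9 genes the plasmablast libraries did not overlap the control ones, which nearly follows from their being called. With the library series as a replicate block 7 genes were higher and 20 lower, among them all 9. The higher ones then also held Cish, Fam125b, Hcst, Hepacam2 and Ntng2, and the lower ones Ddt, Fcer1g, Myl4, Rsad2, Pim2, Lpcat4, Pik3r5, Top1, Ccnd2, Ehd1, Plcd3, Cdkn1a and Tubb6. The share of all genes called with the block is not given here, so no reading is made of its counts. Fitted on the 4 libraries of both groups alone, limma called 0 higher and 0 lower, with 24 of the 71 at an unadjusted p below 0.05. In the fit of 8 libraries 27 of the 71 were below it, against 1704 of all 10473 genes. Leaving out plasmablast library 1 or control library 2 left 0 calls (23 genes each at an unadjusted p below 0.05), without plasmablast library 2 only Pafah1b3 remained, and without control library 1 only Gstt1. Leaving out an activated library or a Blimp1-deficient one ended the calls of Rhod, Sytl1 and Cdk6, and a Blimp1-deficient one also that of Mgst2.

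**Figure D4:**
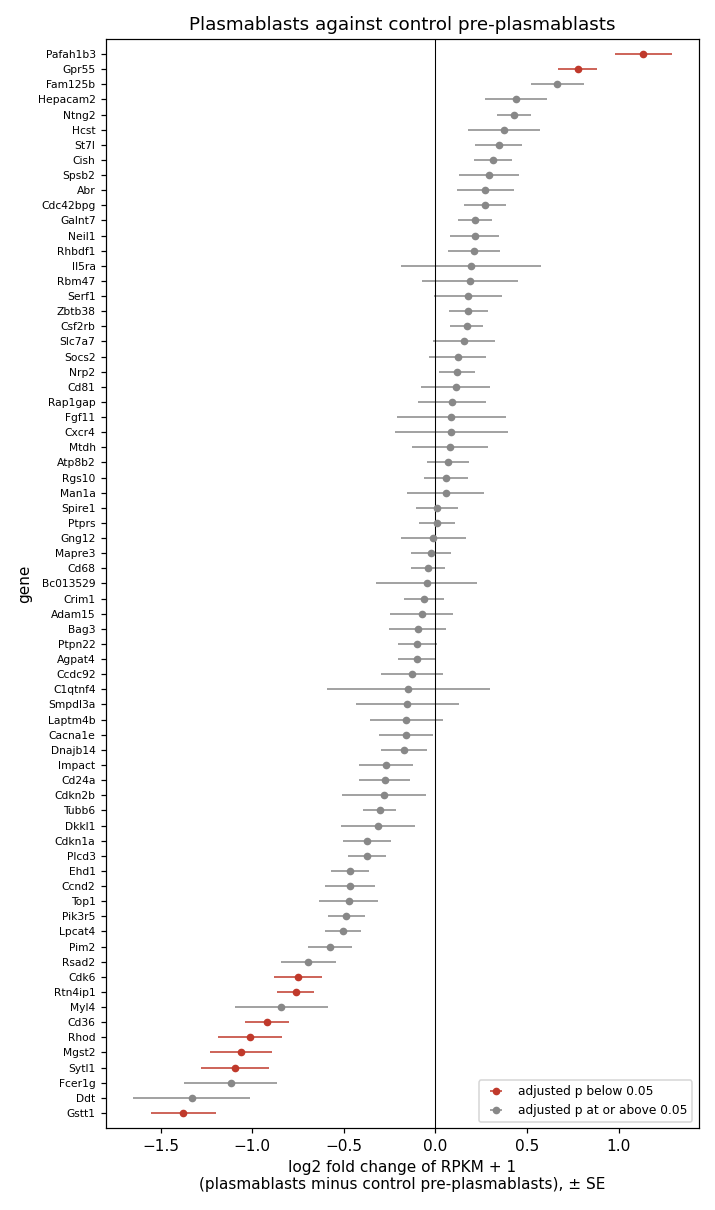
Points are log2 fold changes of RPKM + 1 in plasmablasts minus control pre-plasmablasts for the 71 genes, with bars of 1 SE from the fit of 8 libraries. The 9 red genes passed an adjusted p of 0.05, 2 to the right of 0 and 7 to the left.

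GSK343 inhibits EZH2, the methyltransferase of Polycomb repressive complex 2, which places the repressive mark H3K27me3, and these libraries took no part in choosing the genes. Of the 71 genes 66 passed the filter of 1 RPKM in 2 libraries; Cdc42bpg, Nrp2, Ptprs, Rhbdf1 and Spire1 did not. In GSK343-treated against DMSO-treated pre-plasmablasts 27 of the 66 were higher (40.9%) and 6 lower (9.09%) at an adjusted p below 0.05 (limma). Over all 9479 genes tested 12.7% were higher and 5.86% lower. Rsad2 passed the filter through the GSK343 libraries alone (1.35 and 1.39 RPKM with GSK343, 0.385 and 0.406 RPKM with DMSO). Among genes that reached 1 RPKM in a library of each group, a restriction chosen after seeing the data, 26 of 65 were higher and 6 lower, against 11.5% and 5.82% of 9223 genes. T cell markers (9 of 10 present) summed to 13.8 and 11.6 RPKM with GSK343 and 3.61 and 2.85 RPKM with DMSO, with Cd3e at 0 in all 4 libraries, and erythroid and megakaryocyte markers (7 of 10) to 22.0 and 33.5 RPKM with GSK343 and 12.1 and 15.2 RPKM with DMSO. Their part in these counts was not tested. The median log2 change was 0.25 for the 66 genes and 0.02 for all. Among the 738 tested risen genes with a ratio under 0.8, 15.6% were higher and 18.8% lower, with a median of -0.06. The difference between these shares was not tested.

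Fcer1g changed most, with 13.7 and 14.8 RPKM in GSK343-treated against 2.09 and 2.60 RPKM in DMSO-treated cells (log2 change 2.19, SE 0.13, adjusted p = 2.19e-06). Of 13 myeloid markers 11 were in these tables, and the 10 other than Fcer1g summed to 5.40 and 5.96 RPKM in GSK343-treated and 3.76 and 4.29 RPKM in DMSO-treated cells. Lyz1, Csf1r and S100a8 were at 0 in both DMSO libraries, and 8 of the 11 were under 1 RPKM with GSK343 and 9 with DMSO. Their part in the Fcer1g value was not tested. Laptm4b rose to 13.4 and 15.7 RPKM in GSK343-treated against 3.99 and 2.52 RPKM in DMSO-treated cells (log2 change 1.88, SE 0.16, adjusted p = 3.29e-05). Socs2 rose to 4.77 and 5.84 RPKM under GSK343 against 1.22 and 0.905 RPKM under DMSO (log2 change 1.61, SE 0.15, adjusted p = 4e-05). The cytokine feedback gene, the lysosomal gene and the Fc receptor chain all lay outside the range of the DMSO libraries. This nearly follows from their being called.

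Cell cycle genes moved apart under GSK343. Cdk6 rose to 11.9 and 13.5 RPKM in GSK343-treated against 5.52 and 5.74 RPKM in DMSO-treated cells (log2 change 1.05, SE 0.12, adjusted p = 0.000157), and Cdkn1a rose by 0.49 (SE 0.12, adjusted p = 0.0136, with a range of 6.91e-06 to 0.151 over the alternatives). Its partner Ccnd2 fell to 155 and 155 RPKM under GSK343 against 198 and 229 RPKM under DMSO (log2 change -0.46, SE 0.09, adjusted p = 0.00409). Cdkn2b, a well-known target of Polycomb repression in other cells, had 8.58 and 8.81 RPKM under GSK343 and 8.37 and 12.1 RPKM under DMSO and did not pass the test (log2 change -0.19, SE 0.15, adjusted p = 0.425).

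Receptors and signalling genes went both ways. Cxcr4 rose to 244 and 265 RPKM in GSK343-treated against 166 and 147 RPKM in DMSO-treated cells (log2 change 0.70, SE 0.09, adjusted p = 0.000313), and Gpr55 rose by 0.94 (SE 0.11, adjusted p = 0.000172). Rgs10 rose to 185 and 198 RPKM under GSK343 against 119 and 102 RPKM under DMSO, and Pim2 to 503 and 523 against 307 and 297 RPKM. The adaptor gene Hcst, whose product DAP10 signals for natural killer receptors, fell to 31.2 and 39.2 RPKM under GSK343 against 58.5 and 51.1 RPKM under DMSO (log2 change -0.63, SE 0.11, adjusted p = 0.00328). Csf2rb (log2 change -0.65), Cd68 (-0.58), Cd36 (-0.44) and Mtdh (-0.33) were the other lower genes. By role, 5 of 8 tested genes of the cytoskeleton and membrane traffic, all 4 of glycosylation and chaperones and 4 of 10 signalling genes rose, against 27 of all 66. Of surface receptors and adaptors 4 of 13 rose and 3 fell, and of lipid, amino acid and detoxification enzymes 2 of 9 rose. None (0) of 4 DNA and RNA binding genes rose, 2 of 5 cytokine genes, 2 of 4 cell cycle genes and 4 of 9 others. Differences between roles were not tested. Serf1 rose by 1.20 (SE 0.14, adjusted p = 0.000218). Without the first GSK343 library 15 genes were higher and 5 lower, and without the second 17 were higher and 4 lower. Without the first library the calls of Abr, Bag3, C1qtnf4, Dkkl1, Dnajb14, Ehd1, Gng12, Man1a, Mtdh, Myl4, Sytl1 and Tubb6 were lost, so that Galnt7 alone of the glycosylation and chaperone genes passed. Without the second those of C1qtnf4, Cdkn1a, Csf2rb, Dnajb14, Gng12, Man1a, Mtdh, Myl4, Slc7a7, Sytl1 and Tubb6 were lost. Rsad2 was not tested without either library. The share of all genes called without a GSK343 library is not given here, so no reading is made of those counts.

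**Figure D5:**
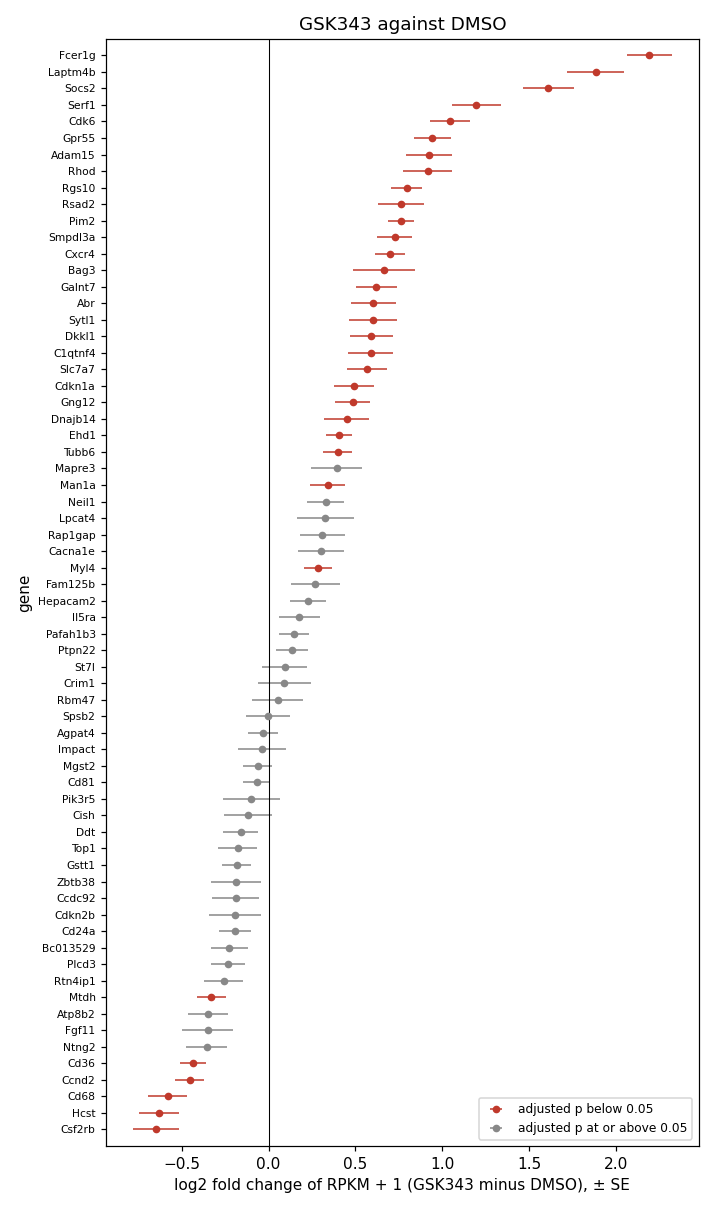
Points are log2 fold changes of RPKM + 1 in GSK343-treated minus DMSO-treated pre-plasmablasts for the 66 tested genes, with bars of 1 SE. Red points passed an adjusted p of 0.05, and 27 of them lie right of 0 and 6 left of it.

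Levels in the remaining libraries were set on another RPKM scale, without the GC correction, so they are given as levels only. In DMSO-treated pre-plasmablasts 43 of the 71 genes (60.6%) had 5 RPKM or more and 6 had less than 1, against 82.3% of the 7669 genes that reached 5 RPKM in control pre-plasmablasts and were found there. In plasma cells taken from mice 69 of the 71 genes were found, and 56 of them (81.2%) had 5 RPKM or more, against 89.1% of 7500 genes. Cxcr4 had 139 and 154 RPKM in plasma cells, Cd81 had 496 and 439 RPKM and Gpr55 had 62.3 and 64.0 RPKM. Cd36 was at 0.562 and 0.195 RPKM, Cdkn1a at 3.72 and 4.81 RPKM and Cdkn2b at 3.99 and 2.08 RPKM. Of the most abundant genes, Cd24a had 170 and 195 RPKM, Pim2 122 and 120 RPKM and Man1a 337 and 299 RPKM.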

How the data were processed

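Of 38 samples, the 14 RNA-seq libraries with processed tables were used, and the other 24 were not analysed here. The deposited values are RPKM: 8 libraries (4 groups of 2) hold RPKM that the authors corrected for GC content, per the file headers and names, and the 4 inhibitor and 2 plasma cell libraries hold RPKM with no such correction named. TopHat 1.4.1, HTSeq 0.5.3 and DESeq 1.8.3 are named, without their roles, per the submitters' processing notes. In the plasma cell tables the names are displaced by summary entries within the list, and they were moved back. Names that occur more than once were left out.

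The genes, lists and roles were chosen with earlier results of these data known. Genes were named by their place at the rule's limits, their level, their ratios and their called changes, and others named within a role were chosen after their values were seen. Tests used limma 3.58.1 in R 4.3.3 with an intensity trend on log2(RPKM + 1), for genes at 1 RPKM or more in 2 libraries, on all 8 GC-corrected libraries together or on the 4 inhibitor libraries. Fold changes of low genes are understated on this scale. A count test was not used: low values of the GC-corrected libraries shared no common step (at most 4.23% of low genes had the commonest ratio between libraries), so their depth is unknown. In the inhibitor libraries the steps gave relative depths of 0.832 to 1.01 of the first DMSO library. On simulated data the fit recovered 100% of genes changed by 1 on the log2 scale in each comparison, with 1 false call for GSK343 (9356 genes) and 13 for plasmablasts (10179 genes). The simulated noise was independent between libraries, with no difference between series, and only more abundant genes were changed. These figures therefore do not show how often calls in the real libraries are right.

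The library numbers in the titles form 2 series. Differences between the series correlated between every pair of groups over 10473 genes (r = 0.666 to 0.781). Libraries of a series were therefore taken as paired in the replicate block. The main tests left this pairing out. Alternatives were another pseudocount (0.1), no filter, median-of-ratios scaling, a replicate block, fewer groups and each library left out. Promoters came from RefSeq.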

Additional observations from a re-analysis of the deposited data

How the results depend on the processing

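The rule gave 67 to 88 genes with 1 library left out, 70 with median-of-ratios scaling (57 of them among the 71), 69 with geometric means and 51 in a window of 0.9 to 1.8. The median log2 change of all genes between Blimp1-deficient and control pre-plasmablasts was 0.116 as deposited and 0.001 with that scaling. For GSK343 against DMSO, leaving out 1 library gave 15 to 27 higher and 4 to 8 lower genes, and other settings gave 21 to 29 higher and 5 to 8 lower, 29 and 8 of them with a replicate block by accession order, which is a name and not a pairing. For plasmablasts against control pre-plasmablasts, the replicate block by library series gave 7 higher and 20 lower, the fit on both groups alone 0 and 0 by limma (24 genes at an unadjusted p below 0.05), and leaving out 1 library 0 to 2 higher and 0 to 4 lower; the cause was not tested. For all lists together the block gave 178 rises and 310 falls, scaling 95 and 268, and leaving out 1 library 85 to 112 and 198 to 241. With the plasma cell names as deposited, 32 and not 56 genes reached 5 RPKM. Shares of all genes called under the alternative settings are not given here, so no reading is made of their counts. No called change of the 71 genes reversed its direction. Medians over all genes did change sign with median-of-ratios scaling. They went from -0.043 to 0.023 for plasmablasts against control pre-plasmablasts, and from 0.017 to -0.037 for GSK343 against DMSO. Depth in the GC-corrected libraries is unknown, which limits what can be said of genes near 1 RPKM.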
